A study of Mus musculus with 12 samples.

Results

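Cytosolic ribosomal protein genes were followed across 4 treatments of isolated mouse pancreatic islets. The set was defined by gene symbol: all measured symbols that begin with Rpl or Rps and a digit, the stalk genes Rplp0 to Rplp2, and Rpsa, without the Rps6k kinases and without symbols ending in -ps. Of 94 symbols that matched the pattern, 10 kinases and 1 pseudogene symbol were left out, which gave 83 genes of the 14089 measured. They comprised 31 proteins of the small ribosomal subunit, 42 of the large subunit, the 3 stalk proteins, 6 genes named for their likeness to a ribosomal protein (Rpl22l1, Rpl36al, Rpl7l1, Rps27l, Rps4l and Rpl37rt), and Rps19bp1. The last is not a ribosomal protein but a nucleolar protein that binds Rps19, and it entered by its symbol. Gnb2l1 (Rack1) and Fau, which also contribute a protein to the ribosome, fall outside the symbol rule and are given further down.

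The ribosome translates messenger RNA into protein. Its small subunit reads the message, its large subunit joins the amino acids, and the acidic stalk on the large subunit recruits the elongation factors. Mammalian ribosomal protein messages typically start with a run of pyrimidines (C or T in the DNA), the terminal oligopyrimidine (TOP) tract, through which mTORC1 and Larp1 control their translation. Many of these genes also carry small nucleolar RNAs in their introns, and many have processed pseudogenes in the genome.

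The islets came from C57BL/6J mice and were released from the pancreas with collagenase. They were kept for 24 hours in vehicle, in 10 µM ML351 (an inhibitor of 12/15-lipoxygenase, which oxygenates polyunsaturated fatty acids), in a cytokine cocktail, or in the cocktail together with ML351, called the combination below. The cocktail held IL-1β at 5 ng/ml, TNF-α at 10 ng/ml and IFN-γ at 100 ng/ml, which together stand for the inflammatory milieu of the islet in type 1 diabetes. Each of the 4 groups had 3 libraries. The labels do not say that these were separate mice or separate cultures, and the p-values below therefore refer to the spread among libraries, part of which may be technical. The age and sex of the mice are not stated in the labels. Whole islets were sequenced, so that fewer cells of a type and less RNA per cell cannot be told apart.

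Library totals ran from 20208286 to 27193026 counts, and all 83 genes passed the filter on low counts, which removed no gene of the table. The lowest count of any of them was 7, for Rps27, and counting error was therefore small for all but a few. The 10 β cell markers summed to 257340 to 379930 CPM (counts scaled to library size) in the 12 libraries, most of it from Ins2 (242720 ± 18065 CPM in vehicle) and Ins1 (76899 ± 4557 CPM; SD, n = 3 each). With cytokines against vehicle, 8 of the 10 were called lower by edgeR and none higher, with a median log2 fold change of -2.95. Markers of other cells moved with the cytokines as well. The 5 α cell markers summed to 27454 to 40098 CPM without cytokines and to 679 to 1599 CPM with them, the 2 δ cell markers to 1251 to 1376 CPM and 75.4 to 175 CPM, and the 2 PP cell markers to 4152 to 11785 CPM and 299.7 to 1411 CPM. The 12 endothelial markers went from 119 to 142 CPM without cytokines to 18.5 to 39.6 CPM with them, the 15 macrophage markers from 178 to 243 CPM to 328 to 389 CPM, and the 8 measured of 9 ductal markers from 1077 to 1370 CPM to 3293 to 4105 CPM. The 9 stellate cell and fibroblast markers summed to 101 to 342 CPM without cytokines and 30.1 to 135 CPM with them. With cytokines against vehicle, edgeR called 10 macrophage markers higher and 1 lower, and 5 ductal markers higher and 1 lower. Of the stellate cell and fibroblast markers 1 was higher and 6 lower, and all α, δ, PP and endothelial markers were lower. Cd68 alone went from 13.0 ± 1.09 to 96.7 ± 6.94 CPM, while C1qa had 58.8 ± 2.78 and 59.6 ± 3.94 CPM (SD, n = 3 each). Among these lists only the endothelial marker set had a gene (Vwf) with a count of 0 in any library. The part of these shifts in the results below was not tested.

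A TOP tract lies at the start of a message, and windows of 10 genes are shown to make pyrimidine runs of 4 to 13 bases visible. Over the 62 genes with a RefSeq promoter the longest run went from 3 bases (Rpl24, Rps19bp1) to 21 (Rpl7a). Each window holds 60 bases, 30 before and 30 from the transcription start listed by RefSeq on GRCm38.p6, the assembly of mm10, written from 5′ to 3′ on the strand of the gene. Capitals mark the longest unbroken run of C and T anywhere in the window, which need not be a TOP tract.
Rpl35a (chr16:33056452-33056511, plus strand): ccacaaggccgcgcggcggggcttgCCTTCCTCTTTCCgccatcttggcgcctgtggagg
Rps10 (chr17:27635215-27635274, minus strand): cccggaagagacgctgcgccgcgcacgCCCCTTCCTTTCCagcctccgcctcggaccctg
Rps18 (chr17:33955636-33955695, minus strand): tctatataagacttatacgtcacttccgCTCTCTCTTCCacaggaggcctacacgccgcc
Rps6 (chr4:86857338-86857397, minus strand): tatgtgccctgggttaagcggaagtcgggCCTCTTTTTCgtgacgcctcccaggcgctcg
Rplp2 (chr7:141447621-141447680, plus strand): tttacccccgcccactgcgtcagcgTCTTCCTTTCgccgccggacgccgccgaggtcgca
Rpl38 (chr11:114668550-114668609, plus strand): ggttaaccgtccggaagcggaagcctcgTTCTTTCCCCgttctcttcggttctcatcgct
Rpl22l1 (chr3:28805478-28805537, plus strand): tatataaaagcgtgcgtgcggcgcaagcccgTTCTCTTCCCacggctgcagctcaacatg
Rps21 (chr2:180257349-180257408, plus strand): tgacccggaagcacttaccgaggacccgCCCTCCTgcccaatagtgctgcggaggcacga
Rpl36al (chr12:69184038-69184097, minus strand): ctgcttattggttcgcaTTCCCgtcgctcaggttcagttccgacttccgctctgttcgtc
Rpl41 (chr10:128549139-128549198, minus strand): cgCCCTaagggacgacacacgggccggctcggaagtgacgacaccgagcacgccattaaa

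The run was 13 bases long in Rpl35a and Rps10 and 10 in Rps6, Rplp2, Rpl38 and Rpl22l1, and in each of these it lay at or within a few bases of the listed start. In Rpl41 the longest run had 4 bases and lay 28 bases before the start. RefSeq promoters were found for 62 of the 83 genes, with 73 starts in all. The longest run within 30 bases of a start had a median of 7 bases in them and of 5 bases over 32841 starts of the mouse genome. A run of at least 8 was found at 35 of the 73 starts (47.9%) and at 22.9% of all starts. The letters CTTTCC stood on the gene's strand within 30 bases of 12 starts (16.4%, against 2.88% of all), and CTCTTTC of 7 (9.59%, against 0.813%). These letters overlap where they meet, as in CTCTTTCC of Rpl35a. Over the whole 300 bases and on both strands, CCGGAAGT, a form of the ETS factor site, was found in 11 (15.1%, against 3.89% of all and 7.25% of those of the genes in the table), and AAGATGGC, a form of the YY1 site, in 8 (11%, against 2.75% and 4.05%). A match is a description of these letters only.

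The genes rose with cytokines as a near-complete set. In vehicle they took 0.464%, 0.468% and 0.447% of all counts, a mean of 0.460% ± 0.0113 (SD, n = 3), and in cytokine-treated islets 0.786%, 0.814% and 0.841%, a mean of 0.814% ± 0.0276 (SD, n = 3). The shares of the groups did not overlap. ML351 alone gave 0.493%, 0.441% and 0.499% (mean 0.478% ± 0.0315, SD, n = 3), a range that spans that of vehicle. The combination gave 0.809%, 0.741% and 0.779% (mean 0.776% ± 0.0340, SD, n = 3), which overlaps the cytokine group. Summed large-subunit CPM stood at 1.21 to 1.29 times summed small-subunit CPM in all 12 libraries.

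**Figure D1:**
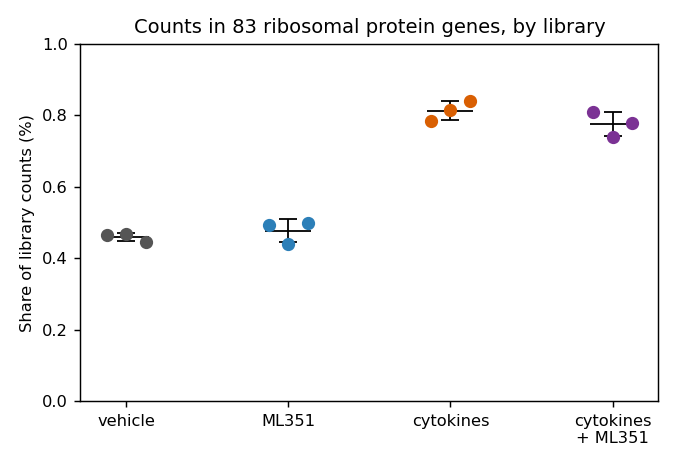
Share of each library's counts that fell in the 83 ribosomal protein genes (vertical axis, percent, from 0) by treatment group (horizontal axis); points are libraries, the long bar is the mean of 3 and the short bars its SD. The 6 libraries with cytokines lie between 0.741% and 0.841%, and the 6 without lie between 0.441% and 0.499%.

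In the comparison of cytokines with vehicle, 79 of the 83 genes were higher at an adjusted p under 0.05 (edgeR quasi-likelihood test, Benjamini-Hochberg over all genes), 2 were lower and 2 were not called. Of all genes tested, 35.3% were called higher and 37.2% lower, so cytokines changed most of the measured transcriptome in both directions. The median log2 fold change was 0.87 (quartiles 0.73 and 1.06), a 1.82-fold rise, beside a median of -0.02 over all genes. It was 0.13 over the 6418 genes with a mean of at least 20 CPM, of which 3041 were called higher. The CPM of the 3 cytokine libraries lay wholly above those of vehicle in 79 of the 83 genes (37.2% of all genes) and wholly below in 2 (39.4% of all genes). Among called genes, a log2 fold change above 1 was reached by 25 of the 83 and by 2098 of all 14089.

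**Figure D2:**
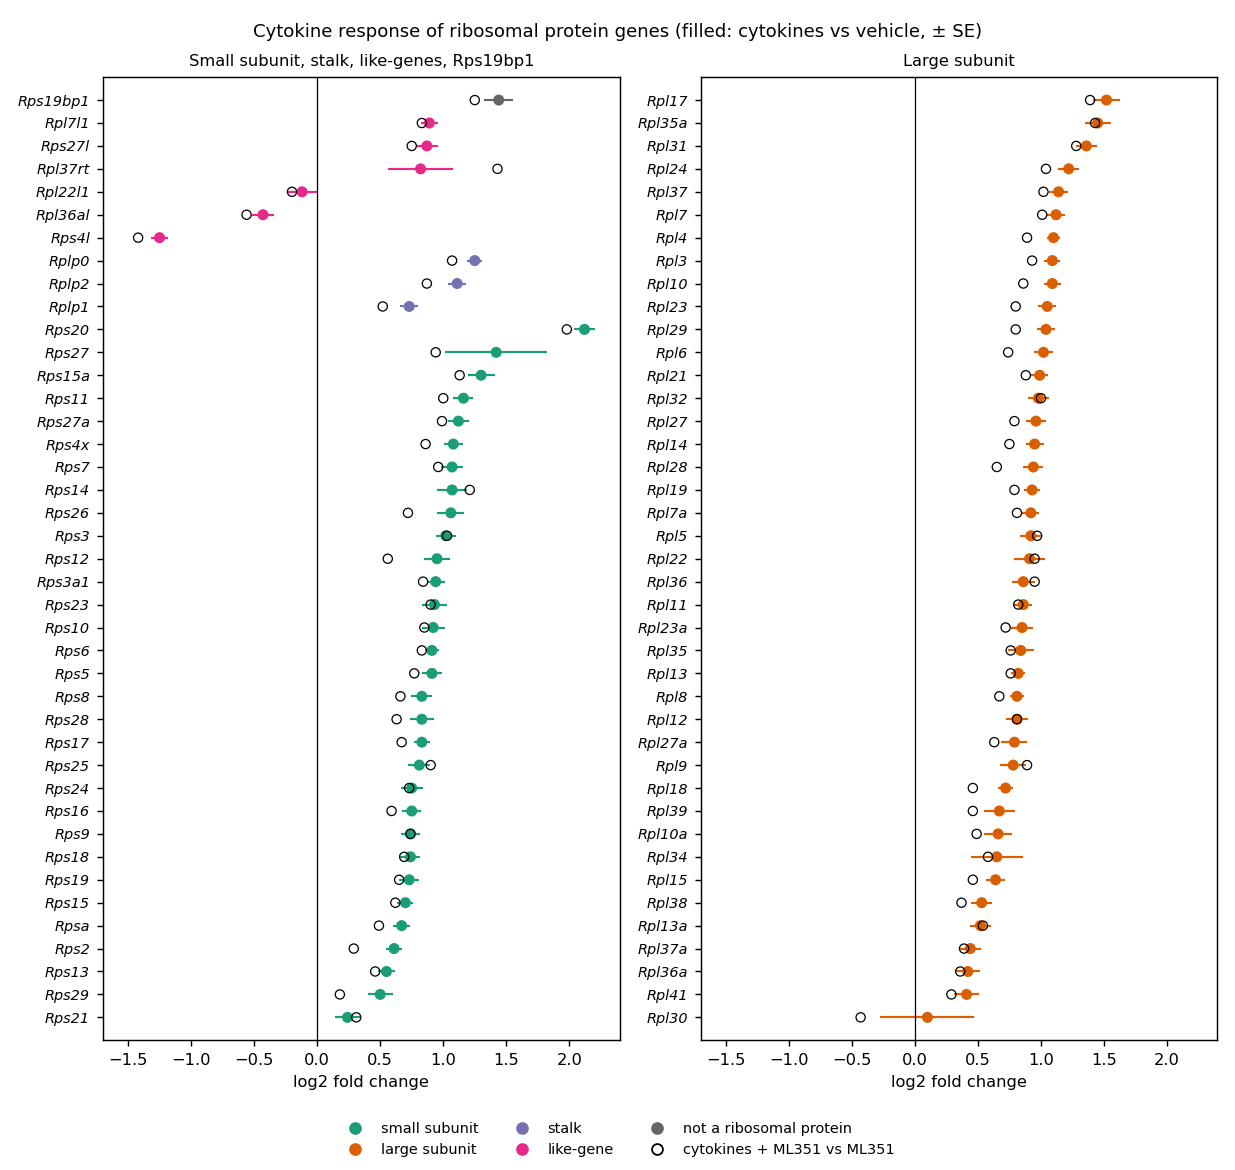
Log2 fold change of the genes (horizontal axis) for cytokines against vehicle (filled points with bars of ± 1 SE, n = 3 libraries a group) and for the combination against ML351 (open circles), with genes on the vertical axis, grouped by subunit and coloured by class. Most filled points lie between 0.5 and 1.2, Rps20 stands at 2.12, and Rps4l and Rpl36al lie below 0 in both comparisons.

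All 31 small-subunit genes were called higher, with a median log2 fold change of 0.91 and a range from 0.24 (Rps21) to 2.12 (Rps20). Rps20, a protein of the head of the small subunit that is ubiquitinated when ribosomes collide, had 23.2, 20.4 and 21.8 CPM in vehicle and 90.9, 92.1 and 102 CPM with cytokines. The groups were far apart, and the log2 fold change was 2.12 (SE 0.086, edgeR adjusted p = 5.6e-13). With ML351 alone it had 20, 23.1 and 22.7 CPM, within the reach of vehicle, and with the combination 94.9, 77.7 and 87.3 CPM. Rps27 showed the next largest rise, 1.42 (SE 0.41, edgeR adjusted p = 0.0047), but on few counts: 15, 7 and 10 in vehicle and 32, 32 and 20 with cytokines. Its near copy Rps27l is described below, and reads shared between near copies cannot be assigned with certainty.

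Rps6, the small-subunit protein that S6 kinases phosphorylate downstream of mTORC1, had 69.2, 66.7 and 69.1 CPM in vehicle and 123, 129 and 132 CPM with cytokines. That was a log2 fold change of 0.91 (SE 0.058, edgeR adjusted p = 2.2e-10), at the median of its subunit. Rpsa, which also serves as a laminin receptor precursor, went from 122 ± 6.95 to 193 ± 12.8 CPM (SD, n = 3 each), a log2 fold change of 0.67. Rps18, often used as a reference gene in quantitative PCR, had 81.4, 78.0 and 80.1 CPM in vehicle and 124, 130 and 147 CPM with cytokines. Its log2 fold change was 0.74 (SE 0.079, edgeR adjusted p = 2.1e-07). The smallest rise of the subunit, in Rps21, was 22.9 ± 1.33 to 27.1 ± 2.67 CPM (SD, n = 3 each). The edgeR adjusted p of Rps21 was 0.04, and the call was lost in 8 of 22 alternative analyses, among them those without vehicle library 2 or 4 or cytokine library 3 or 4 (highest adjusted p 0.31).

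Of the 42 large-subunit genes, 41 were called higher and Rpl30 was not. The median log2 fold change was 0.89, and the largest were those of Rpl17 (1.52), Rpl35a (1.45) and Rpl31 (1.36), proteins near the exit of the nascent chain tunnel or on the subunit's surface. Rpl17 had 26.4, 25.5 and 28.9 CPM in vehicle and 68.0, 74.9 and 88.5 CPM with cytokines (SE 0.11, edgeR adjusted p = 2.6e-09). Rpl35a, a gene mutated in some patients with Diamond-Blackfan anaemia, had 26.8, 26.3 and 28.9 CPM in vehicle and 70.8, 72.8 and 80.0 CPM with cytokines (SE 0.10, edgeR adjusted p = 2.7e-09). In both genes the lowest cytokine library lay well above the highest vehicle library.

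Rpl5 and Rpl11, which with 5S ribosomal RNA can bind Mdm2 and stabilise p53, rose by log2 fold changes of 0.92 and 0.86. Rpl5 went from 50.1 ± 2.16 to 95 ± 5.84 CPM and Rpl11 from 38.9 ± 1.14 to 70.5 ± 2.64 CPM (SD, n = 3 each); both were named after their values were seen. Rpl13a, another common reference gene, had 72.6, 73.4 and 77.8 CPM in vehicle and 98.3, 105 and 119 CPM with cytokines. Its log2 fold change of 0.52 (SE 0.084, edgeR adjusted p = 2.6e-05) was among the smaller ones. Rpl41, which encodes the smallest ribosomal protein, rose by 0.41 (SE 0.097, edgeR adjusted p = 0.0015), from 139, 139 and 157 CPM to 169, 195 and 214 CPM. Rpl30 had 0.637, 1.12 and 0.921 CPM in vehicle and 0.645, 1.13 and 1.11 CPM with cytokines. These overlap, and no difference was detectable at this depth (log2 fold change 0.10, SE 0.37, edgeR adjusted p = 0.82).

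All 3 stalk genes rose. Rplp0, the base of the stalk and a frequent reference gene, had 257, 245 and 251 CPM in vehicle and 585, 590 and 615 CPM with cytokines. Its log2 fold change was 1.25 (SE 0.06, edgeR adjusted p = 5.4e-12). Rplp2 rose by 1.11, from 31.6 ± 0.611 to 68.4 ± 2.57 CPM, and its partner Rplp1 by 0.73, from 50.3 ± 2.69 to 83.3 ± 5.67 CPM (SD, n = 3 each). The 3 genes often chosen as references, Rplp0, Rpl13a and Rps18, thus all changed with the treatment, by different amounts.

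The 6 genes named for their likeness to a ribosomal protein were mixed: 3 were higher, 2 lower and 1 not called. Over all genes 35.3% were called higher and 37.2% lower, so both directions were common. Rps4l, annotated in GENCODE M21 as a transcribed processed pseudogene on chromosome 6, had 53.6, 49.0 and 52.1 CPM in vehicle and 22.5, 21.8 and 20.9 CPM with cytokines. It fell by 1.25 on the log2 scale (SE 0.067, edgeR adjusted p = 2.4e-11). Rps4x on chromosome X, which it resembles, went the other way, from 49.3, 46.8 and 43.0 CPM to 88.1, 102 and 105 CPM, a log2 fold change of 1.08. The libraries of the groups did not overlap in either gene.

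Rpl36al, a paralog of the large-subunit gene Rpl36a that makes a nearly identical protein, fell as well. It had 72.0, 72.5 and 77.4 CPM in vehicle and 53.0, 52.5 and 59.8 CPM with cytokines, with no overlap and a log2 fold change of -0.43 (SE 0.086, edgeR adjusted p = 0.00028). Rpl36a rose by 0.42, from 12.2 ± 1.11 to 16.3 ± 0.603 CPM (SD, n = 3 each; edgeR adjusted p = 0.0013). Rpl22l1 had 16.6, 16.1 and 17.4 CPM in vehicle and 14.6, 13.9 and 17.7 CPM with cytokines, which overlap (log2 fold change -0.12, SE 0.12, edgeR adjusted p = 0.37). Its paralog Rpl22 rose from 10.1 ± 0.638 to 19.0 ± 1.05 CPM (SD, n = 3 each), a log2 fold change of 0.91 (edgeR adjusted p = 3.5e-06). The difference in response within a pair was not tested.

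In the other pairs both genes rose. Rpl7l1, a relative of Rpl7, went from 60.4 ± 1.83 to 112 ± 4.42 CPM (log2 fold change 0.89) and Rpl7 from 70.6 ± 2.31 to 153 ± 14.5 CPM (1.12). Rps27l, a known p53 target, went from 57.4 ± 4.21 to 105 ± 11.9 CPM (0.87) and Rps27 by the 1.42 given above. Rpl37rt, also annotated as a transcribed processed pseudogene, went from 1.37 ± 0.172 to 2.42 ± 0.393 CPM (0.82, edgeR adjusted p = 0.0088) and Rpl37 from 31.0 ± 1.71 to 68.2 ± 6.13 CPM (1.14; SD, n = 3 throughout). Rps19bp1, which is not part of the ribosome, had 6.24, 6.45 and 7.87 CPM in vehicle and 19.5, 19.3 and 17.0 CPM with cytokines, a log2 fold change of 1.44 (SE 0.11, edgeR adjusted p = 3.7e-09).

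**Figure D3:**
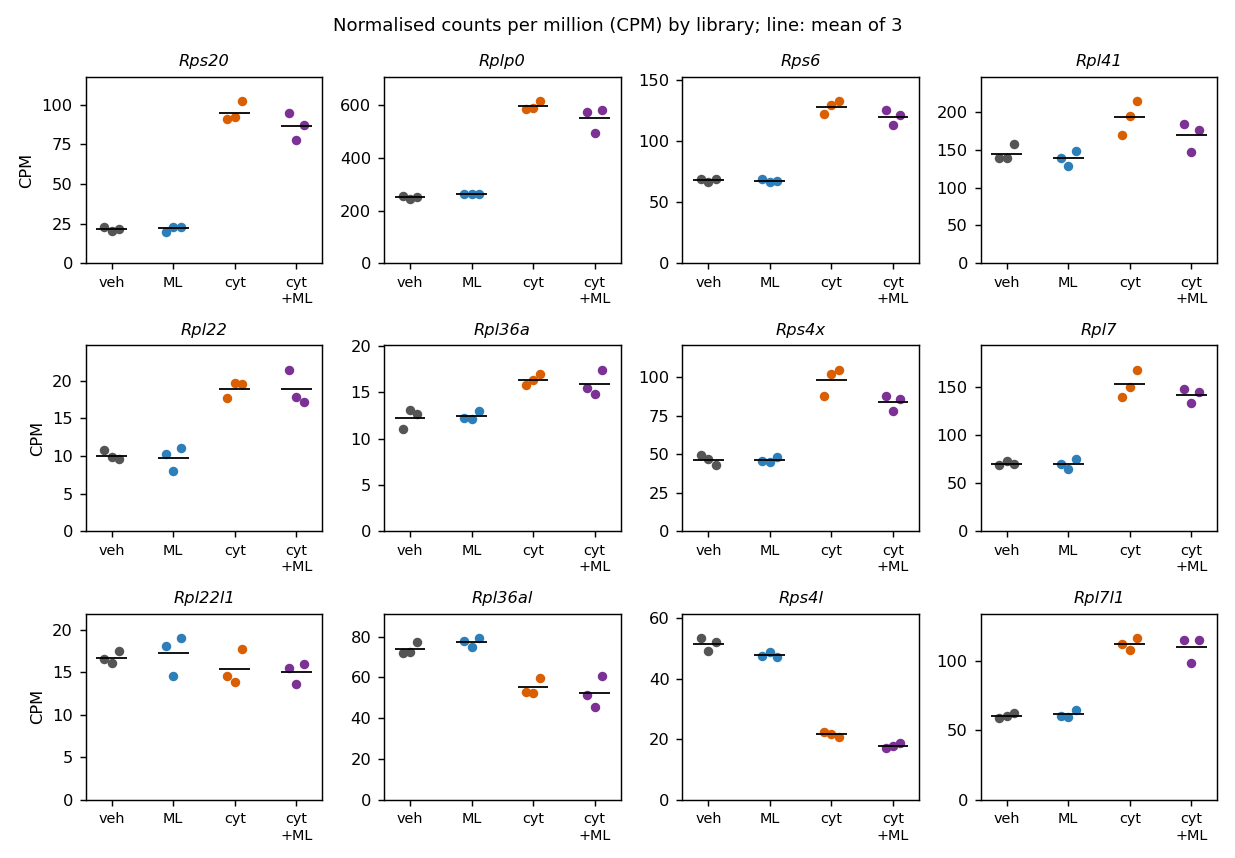
Normalised CPM (vertical axes, each from 0) of 12 genes in the 12 libraries, by treatment (horizontal axes; veh, vehicle; ML, ML351; cyt, cytokines; cyt +ML, the combination); points are libraries and bars the mean of 3. The middle row shows Rpl22, Rpl36a, Rps4x and Rpl7 above the related gene in the bottom row, where Rps4l falls from 51.6 to 21.7 CPM while Rps4x rises from 46.3 to 98.3 CPM.

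Levels between genes were compared per length, as counts per kilobase scaled to the same sum in each library over all genes with a length (the scale of TPM), using the shortest principal transcript of each gene in GENCODE M21. In vehicle the median of the 76 ribosomal proteins, without the like-genes and Rps19bp1, was 63.6, beside 5.57 over all genes, and with cytokines it was 119. The highest per-length levels in vehicle were those of Rpl41 (343 ± 11.8), Rps14 (300 ± 3.90) and Rplp0 (192 ± 9.07; SD, n = 3 each). The lowest of the 83 were Rps27 (1.42 ± 0.453), Rpl30 (1.63 ± 0.495) and Rpl37rt (3.49 ± 0.625; SD, n = 3 each). The order rested on the length used: with all exons of a gene, chosen after seeing the data, Rplp0 was highest (303), Rpl41 next (248) and Rps14 at rank 10 (144), and Rpl30 (0.595) was lowest, below Rps27 (0.908).

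GENCODE M21 lists 293 pseudogene symbols named after 60 of the 83 genes. Of the 3 genes with the lowest levels, Rpl30 had 9, Rps27 had 1 and Rpl37rt had 0. Rps12 and Rpl31 had 24 each, with per-length levels in vehicle of 32.2 and 46.3. The labels do not say how reads that match several places were counted, and the part of the pseudogenes in the low levels was not tested. The level of Rps20 per length, 6.10 ± 0.376 (SD, n = 3), rests on a principal transcript of 3706 bases, the longest of the set. The order changed little with cytokines: Spearman's rho of the per-length levels in vehicle and cytokines was 0.977 over the 76 genes, which share their libraries and lengths.

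The size of the rise was set beside level, length and sequence. Across the 83 genes, which share libraries, Pearson's r of the cytokine log2 fold change was -0.037 with the log2 vehicle CPM and 0.252 with the log2 transcript length. These are short transcripts, with a median of 729 bases against 2765 over all genes. Among 851 other genes with a length between the quartiles of the set, the median log2 fold change was 0.15 and 39.4% were called higher. The 33 genes with a pyrimidine run of at least 8 bases anywhere within 30 bases of a start had a median log2 fold change of 0.87. The 29 with only shorter runs had a median of 0.83. Their log2 fold changes ran from -0.12 to 1.45 and from -0.43 to 1.44. The part of these runs in the rise was not tested. A small nucleolar RNA gene lay within 30 of the 83 genes on the same strand (36.1%), against 1.6% of all genes tested. Those 30 had a median of 0.93 and the other 53 a median of 0.86. Libraries carried no strand, and the exons of 39 of the 83 overlap those of another annotated gene, at 10% or more of their bases in 12, so reads there may belong to either gene.

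The cytokine response was also measured in the presence of ML351. Of the 83 genes, 78 were called higher in the combination than with ML351 alone and 2 lower (edgeR adjusted p under 0.05), where 35.2% of all genes were called higher and 36.4% lower. The median log2 fold change was 0.77, against -0.02 over all genes. The libraries did not overlap in 76 higher genes (36.4% of all genes) and 2 lower ones (37.6% of all genes). The largest rises were those of Rps20 (1.98), Rpl37rt (1.43), Rpl35a (1.43), Rpl17 (1.39) and Rpl31 (1.28). That of Rpl37rt (SE 0.26) rested on few counts: 25, 29 and 26 with ML351 and 61, 50 and 64 with the combination. Rps4l and Rpl36al fell again, by 1.42 (SE 0.068, edgeR adjusted p = 5.5e-12) and by 0.56 (SE 0.086, edgeR adjusted p = 1.8e-05). Rps4l had 47.7, 48.9 and 47.2 CPM with ML351 and 17.2, 17.8 and 18.6 CPM with the combination, and Rpl36al had 77.6, 74.9 and 79.3 CPM and then 51.5, 45.3 and 60.7 CPM.

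Not called in this background were Rpl22l1 (-0.20), Rpl30 (-0.43) and Rps29 (0.18, SE 0.099, edgeR adjusted p = 0.12). Rps29, a small zinc-binding protein, had 42.1, 41.9 and 41.5 CPM with ML351 and 54.7, 43.0 and 44.3 CPM with the combination, so its libraries did not overlap although the test was not passed. Rps27 was called (0.94, edgeR adjusted p = 0.044), but in only 11 of the 22 alternatives. The comparison of cytokines with vehicle and that of the combination with ML351 share no library. Between them 78 genes were called higher in both and 2 lower in both. Of all 14089 genes, 4522 were called higher in both. Pearson's r of the log2 fold changes was 0.943 over the 83 genes, as it was 0.948 over all genes. The 24 measured of 29 acinar markers summed to 215 to 413 CPM with ML351 and to 1178 to 1731 CPM with the combination. There edgeR called 14 of the 24 higher and 1 lower. The part of this shift in the ribosomal protein response was not tested.

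No effect of ML351 alone was detected. None of the 83 was called against vehicle by edgeR, DESeq2 or limma-voom. Over all genes edgeR called 0.0355%, and limma-voom called 2 higher and 5 lower of 14089. DESeq2 called 49 higher and 61 lower of the 9716 to which it gave an adjusted p. In edgeR none had an unadjusted p under 0.05 (8.98% of all genes). Log2 fold changes lay between -0.38 (Rpl37rt) and 0.26 (Rps27), and the median fold was 0.999. Libraries did not overlap in 5 higher genes (8.57% of all genes) and 8 lower ones (7.32% of all genes). Rpl13 and Rps2 were among the genes with the smallest p-values. Rpl13 had 127, 131 and 134 CPM in vehicle and 119, 125 and 121 CPM with ML351 (log2 fold change -0.11, SE 0.055, edgeR adjusted p = 0.61). Rps2, a small-subunit protein at the entry of the message channel, had 111, 109 and 108 CPM and then 120, 115 and 120 CPM (0.12, SE 0.063, edgeR adjusted p = 0.64). In both genes the libraries did not overlap.

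On top of cytokines, most of the genes had log2 fold changes slightly below 0 with ML351, but few passed the test. In the combination against cytokines, 73 of the 83 lay below 0 and 10 above, where 49% of all genes were below 0. The median was -0.13, beside 0 over all genes, and leaving out 1 library moved it between -0.19 and -0.07. Only 2 genes were called lower and none higher (edgeR adjusted p under 0.05; 0.788% of all genes lower and 0.646% higher), and 32 had an unadjusted p under 0.05 (15.7% of all genes). Libraries lay wholly below in 21 (10.3% of all genes) and wholly above in none (10.1% of all genes). Rpl10, a late-joining large-subunit protein next to the catalytic centre, had 233, 260 and 274 CPM with cytokines and 223, 195 and 214 CPM with the combination (-0.28, SE 0.066, edgeR adjusted p = 0.047). Rpl18 had 118, 119 and 127 CPM and then 107, 96.0 and 103 CPM (-0.25, SE 0.059, edgeR adjusted p just under the threshold, 0.05 when rounded).

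Both calls were fragile. Rpl10 was called in 10 of the 22 alternatives and Rpl18 in 8, and neither was called without any one of vehicle libraries 1, 2 or 4, ML351 library 2, cytokine libraries 3 or 4, or combination library 2. DESeq2 called 10 of the 83 lower (2.78% of all genes with an adjusted p), and edgeR called 6 lower without combination library 1 (0.738% of all genes). In these groups the 24 measured of 29 acinar markers summed to 55.3 to 1017 CPM with cytokines and to 1178 to 1731 CPM with the combination, and 1 of the 24 had a count of 0 in a library. The macrophage markers summed to 370 to 389 CPM and 328 to 332 CPM, and the endothelial markers to 28.9 to 39.6 CPM and 18.5 to 22.2 CPM. The part of these differences in the lower ribosomal protein levels was not tested.

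**Figure D4:**
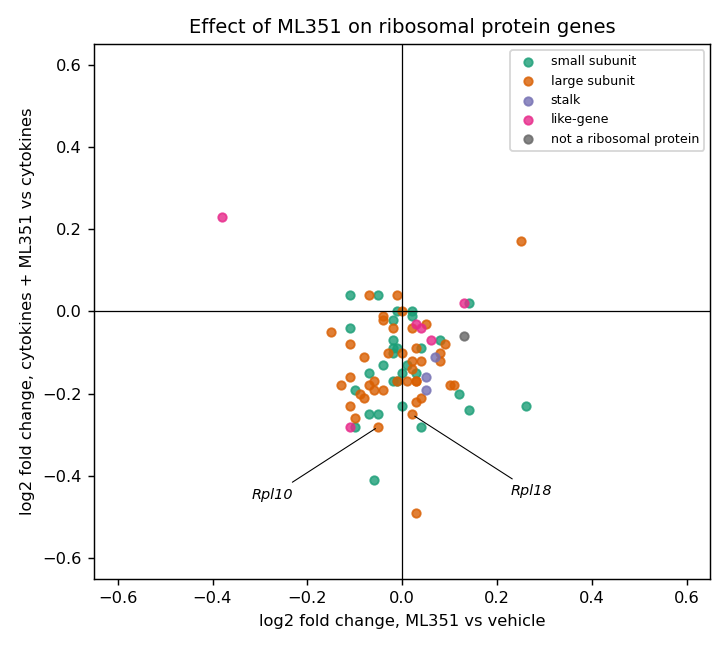
Log2 fold change of each of the 83 genes for ML351 against vehicle (horizontal axis) and for the combination against cytokines (vertical axis), coloured by class; lines mark 0, and the 2 genes called lower in the combination are named. Points spread on both sides of 0 along the horizontal axis, from -0.38 to 0.26, while 73 of the 83 lie below 0 on the vertical axis.

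Whether ML351 altered the cytokine response was tested by the interaction of both treatments. By edgeR none of the 83 genes was called (0.0071% of all genes), 14 had an unadjusted p under 0.05 (8.23% of all genes), and the median was -0.13. The cytokine log2 fold change was larger without ML351 in 70 of the 83 (51.5% of all genes). The smallest p-values were those of Rps2 (-0.32, SE 0.09, edgeR adjusted p = 0.37), Rpl18 (-0.26, SE 0.084, edgeR adjusted p = 0.38) and Rpl4 (-0.21, SE 0.076, edgeR adjusted p = 0.48). Rps2 was the single gene of the set called by DESeq2 (-0.33, adjusted p = 0.041), which called 1.16% of the genes to which it gave an adjusted p lower, and limma-voom called none. Rps2 had 165, 157 and 176 CPM with cytokines and 158, 139 and 135 CPM with the combination. The 24 measured acinar markers had a median interaction of 2.18, with none called by edgeR, and their part in these values was not tested.

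Genes of the same machinery were read from lists of other components. Gnb2l1, which sits on the head of the small subunit, rose with cytokines by 0.95 (109 ± 1.82 to 211 ± 14.4 CPM), and Fau, which encodes a small-subunit protein fused to a ubiquitin-like protein, by 1.01 (37.4 ± 1.42 to 75.4 ± 2.30 CPM; SD, n = 3 throughout). Both passed the test, and neither was called in the combination against cytokines.

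Translation initiation factors rose with cytokines in 32 of 35 measured cases and fell in 3, with a median log2 fold change of 0.88. Pabpc1, the cytoplasmic poly(A)-binding protein and itself a TOP message, went from 71.6 ± 2.96 to 751 ± 37.9 CPM (SD, n = 3 each; 3.39, edgeR adjusted p = 1e-17). Eif6, which keeps the subunits apart, rose by 2.57, Eif5 by 1.44 and Eif3d by 1.36. In the combination against cytokines 2 of the 35 initiation factors were lower, where 0.788% of all genes were. They were Pabpc1 (-0.33, edgeR adjusted p = 0.0087) and Eif6 (-0.23, edgeR adjusted p = 0.049). Of 10 elongation factor genes, 7 rose and 3 fell, with a median of 0.52 and a range from -2.27 to 1.07. Those named here all rose: Eif5a by 1.07, Eef1g by 0.99, Eef1a1 by 0.67 and Eef1d by 0.62. Over all genes tested, 35.3% were called higher with cytokines and 37.2% lower.

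Ribosome biogenesis factors rose in 61 of 75 and fell in 4, with a median of 0.62. Noc4l, a small-subunit processing factor, rose by 2.07, Npm1 (nucleophosmin) by 1.35, the nucleolar methyltransferase Nop2 by 1.27 and Ncl (nucleolin) by 1.11. Of 10 small nucleolar RNA host genes 6 rose and 3 fell (median 1.09), with Snhg1 (2.96), Snhg5 (2.4) and Gas5 (1.55) higher and Snhg18 (-1.55) lower. Among 13 ribosome quality control genes 7 rose and 5 fell, with a median of 0.36 and a range from -0.76 to 1.39. Of all genes tested, 35.3% were called higher and 37.2% lower. Those named here all rose: the collision sensors Edf1 (1.13) and Zak (1.39), Zfp598 (1.2) and Ascc2 (1.29). Zfp598 ubiquitinates small-subunit proteins of collided ribosomes, and Ascc2 is a part of the complex that splits them. All of these named genes passed the test.

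Of 22 measured regulators of TOP messages and of mTORC1, 9 rose and 8 fell, with a median of -0.13, where 35.3% of all genes were called higher and 37.2% lower. Eif4ebp1, a translational repressor, rose by 1.75 and Larp1, which binds TOP messages, by 1.10, while Sesn1, an mTORC1 inhibitor, fell by 1.84 and Pdcd4, an inhibitor of initiation, by 1.79. The 10 Rps6k kinases left out by the rule gave 4 higher and 4 lower. Mitochondrial ribosomal proteins, which form the separate ribosome of that organelle, were higher in 50 and lower in 11 of 77 (median 0.43). Their difference from the cytosolic set was not tested.

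**Figure D5:**
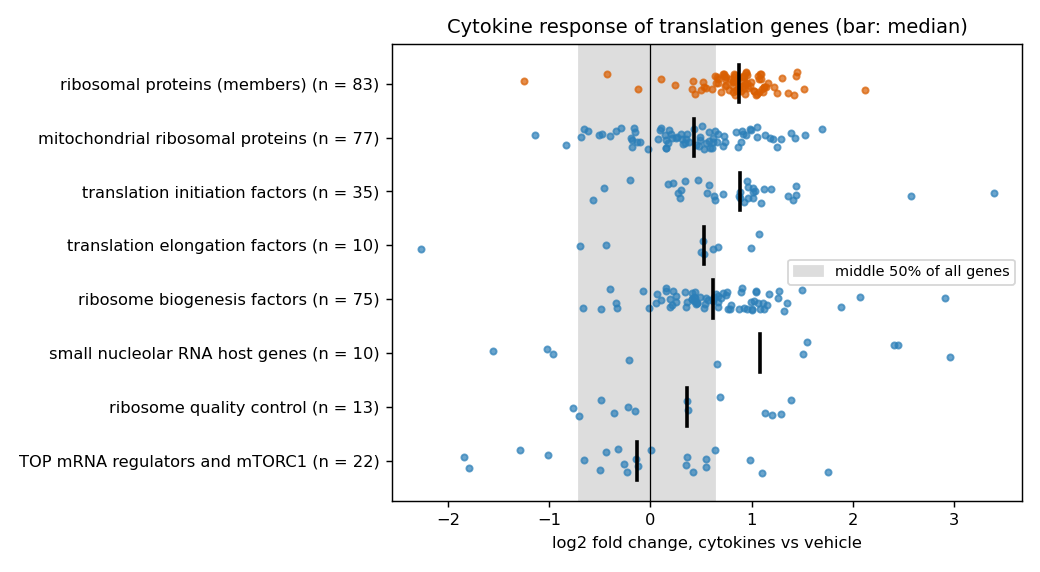
Log2 fold change for cytokines against vehicle (horizontal axis) of each gene in 8 sets (vertical axis, with the number measured); points are genes, bars are medians, and the grey band holds the middle 50% of all genes. The cytosolic ribosomal proteins (median 0.87) and the initiation factors (median 0.88) lie mostly to the right of the band, and the regulators of TOP messages and mTORC1 (median -0.13) lie on both sides of 0.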

How the data were processed

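The authors deposited raw counts, 1 whole number for each gene symbol in each of 12 libraries. Per the submitters' processing notes the tools were FastQC, STAR, featureCounts, Subread and DESeq2 and the build mm10; versions, annotation and the treatment of multi-mapping reads are not stated there. Per the labels' protocols the libraries were made with SMARTSeq v4 and are nonstranded. From the counts, edgeR 4.0.16 in R 4.3.3 was fitted to all 12 libraries with 1 mean per group (TMM scaling, filterByExpr, robust glmQLFit, glmQLFTest). P-values were adjusted by Benjamini-Hochberg over the 14089 genes of a comparison, with a threshold of 0.05. Each SE was taken from edgeR's log2 fold change and F. CPM were scaled with the TMM factors. Shares use all counts.

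The genes and lists were chosen with earlier results of these data known. Named were, per comparison, the 5 largest called rises and falls without overlap (or the 3 smallest p-values where none was called), like-genes with their relatives, common reference genes, Rps6, Rpsa, stalk genes, Rpl41, the 3 highest and 3 lowest per-length levels, and up to 4 list genes with the smallest p; others were named after their values were seen. Alternatives were DESeq2 1.42.0, limma-voom (limma 3.58.1), other scalings, filters and designs, a replicate block, and leaving out each library. The libraries of a group differed by more than sampling noise in each pair. Positions and lengths came from GENCODE M21, promoters from RefSeq. A few genes that this rule names are not reported here.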

Additional observations from a re-analysis of the deposited data

How the results depend on the processing

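In cytokines against vehicle 78 or 79 genes were called higher and 2 lower in each of the 22 alternatives, and in the combination against ML351 74 to 78 higher and 2 or 3 lower. Over all genes, 13160 to 14089 by the alternative, 4332 to 5092 were called higher and 4903 to 5951 lower in the first comparison. In the second 4298 to 5090 were called higher and 4780 to 5851 lower. Upper-quartile scaling moved the median log2 fold change to 0.74 and 0.65 in these comparisons, and library totals alone moved the second to 0.69. Upper-quartile scaling also moved the median of all genes, to -0.15 and -0.14. In the combination against cytokines, 0 genes were called lower with library totals alone, limma-voom, the replicate block, glmQLFit without robust, or only the groups compared, 10 with DESeq2, and 0 to 6 when leaving out 1 library. DESeq2 called 1 gene lower in the interaction, which could not be fitted to only the groups compared. Rpl30 turned negative in cytokines against vehicle with upper-quartile scaling (-0.02), and without vehicle library 1 (-0.10), cytokine library 3 (-0.04) or cytokine library 4 (-0.02), never past the threshold; leaving out 1 library gave -0.10 to 0.34.

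Without Ins1 and Ins2 in the totals, the shares were 0.676% in vehicle, 0.68% with ML351, 1.12% with cytokines and 1.05% with the combination. Without the like-genes and Rps19bp1 they were 0.433% in vehicle and 0.782% with cytokines. Over 68 results for named genes and 1493 alternative values, 1462 kept direction and call, 26 lost the call, 1 gained it and 4 turned sign. Per length, using all exons of a gene, chosen after seeing the data, moved the median vehicle level from 63.6 to 46.3.

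No pairing by replicate number was detected: deviations of same-numbered libraries correlated at -0.377 to 0.202 (median -0.0686, 13 pairs). Those of differently numbered libraries correlated at -0.301 to 0.466 (median 0.0167, 41 pairs). Such correlations cannot exclude that same-numbered libraries shared an animal or a culture. With the replicate block, 78 genes were higher and 2 lower in cytokines against vehicle, where 4760 of all 14089 genes were higher and 4939 lower. Genes below about 1 CPM, such as Rps27 and Rpl30, are limited by counting.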
